A study of Mus musculus with 8 samples.

Results

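Axon guidance ligands and receptors were examined in a map of Argonaute-bound RNA from mouse forebrain. The genes were chosen by symbol: every gene named in the 3' UTR, CDS, 5' UTR or intron annotation of the deposited clusters whose symbol belongs to the Eph receptors (Epha, Ephb), ephrins (Efna, Efnb), semaphorins (Sema), plexins (Plxn), neuropilins (Nrp1, Nrp2), Slits, Robos, netrins (Ntn, Ntng), Unc5 receptors or Dcc. This gave 56 of 9962 named genes, or 0.562%. They were named by 549 of 70142 clusters, which held 12619 of 1834586 reads. By role, 28 were ligands (Slits, netrins, semaphorins and ephrins) and 28 were receptors.

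In the assay, HITS-CLIP, ultraviolet light links RNA to a Flag-tagged Argonaute 2, which is pulled down with a FLAG antibody, and reads of the bound RNA pile up in clusters where Argonaute lay on a transcript. Per the labels, 5 libraries came from Camk2a-cre; Rosa-Stopfl/fl-Flag-Ago2 animals, where a Cre driven by the Camk2a promoter, active in excitatory forebrain neurons, switches on the tagged protein. The other 3 are controls of genotype Rosa-Stopfl/fl-Flag-Ago2, which carry the same silent allele and no Cre. All mice were 8 to 14 weeks old, the libraries belong to 3 experiments, and each precipitation used part of a single forebrain with the M2 antibody. The study's question was seed targeting by miRNAs in neurons that express Camk2a. Its deposited table holds 1 read count per cluster, pooled over libraries that the sources used here do not name. There is therefore no value per library, no replicate spread and no control value for any gene below, and no value compares Flag-Ago2 with control mice. In such pooled tissue material, fewer cells that express a gene and less of its RNA per cell cannot be told apart.

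Axon guidance molecules steer growing axons. Slits are secreted and repel axons through Robo receptors. Netrins attract through Dcc and repel through Unc5 receptors. Semaphorins act through plexins, with neuropilins as the binding partners for most secreted semaphorins, and ephrins bound to one cell signal to Eph receptor tyrosine kinases on another. In the adult forebrain many of these molecules remain at synapses, where they are known for roles in spine and synapse structure. miRNAs guide Argonaute to messenger RNAs by pairing of their seed, bases 2 to 8, mostly in 3' UTRs.

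The cell type label, Camk2a-neuron, was checked against markers. Of 8 markers of excitatory forebrain neurons, 8 had an exonic cluster, with 11 to 618 exonic reads. Markers of other cell types were present as well. An exonic cluster was found for 6 of 6 astrocyte markers (58 to 1105 reads) and for 5 of 6 oligodendrocyte markers (0 to 298 reads, Mog at 0). It was found for 3 of 6 interneuron markers (0 to 146 reads, with Pvalb, Sst and Vip at 0) and for 4 of 6 endothelial and mural markers (0 to 169 reads, with Kdr and Pecam1 at 0). Of 6 microglial markers 3 had one (0 to 33 reads, with Aif1, P2ry12 and Tmem119 at 0). The part of these cells in the values below was not tested. A cluster had to hold at least 10 reads to be in the table, and 301 of the 549 clusters of axon guidance genes (54.8%) held fewer than 20, so most sites below rest on few reads. The labels name no molecular identifiers, and the intervals given below cover counting error only.

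Most of the gene families were represented. GENCODE M21 annotates 72 protein-coding genes whose symbols fit these families, and 56 of them (77.8%) were named by a cluster on their strand, against 43.2% of all protein-coding genes. All 4 Robos, all 3 Slits, all 3 B-class ephrins, both neuropilins and Dcc were among them, as were 16 of 20 semaphorins, 7 of 9 plexins, 6 of 9 EphA and 4 of 5 EphB receptors. The A-class ephrins had the lowest share, with 2 of 5. The 16 genes that no cluster named on their strand were Efna1, Efna2, Efna4, Epha1, Epha2, Epha8, Ephb4, Ntn3, Ntn5, Plxna3, Plxnb3, Sema3b, Sema3d, Sema3f, Sema3g and Unc5cl. These were mostly short genes, with a median length of 15.1 kb, against 128 kb for the 56 that were named. The longest of them, Sema3d, spans 206 kb.

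An exonic cluster, meaning one in the 3' UTR, CDS or 5' UTR, was found for 50 of the 56 genes (89.3%, 95% Wilson interval 78.5 to 95), against 81.4% of all named genes. A 3' UTR cluster was found for 33 (58.9%, 45.9 to 70.8), against 48.8% of all named genes, and a CDS cluster for 39 (69.6%, 56.7 to 80.1), against 59.9%. Intron-only clusters were found for 41 genes (73.2%, 60.4 to 83.0), against 64.8%. The intervals of all 4 shares hold their background. A cluster that carries a circRNA identifier was found for 25 genes (44.6%, 32.4 to 57.6), against 27.2% of all named genes, which lies below the interval. Axon guidance genes were also longer than the rest, with a median of 7252 annotated exon bases against 5166 for the other named genes, and a median gene length of 128 kb against 34.2 kb. How far length accounts for the shares was not tested.

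The depth of axon guidance genes was close to that of other genes. Where a gene had an exonic cluster, its exonic reads had a median of 56 (interquartile range 30 to 111) among axon guidance genes and 48 (23 to 102) among the other genes. Per kilobase of exon the order turned round, with a median of 8.56 reads per kb for axon guidance genes and 9.84 reads per kb for the others. The deepest of their 549 clusters held 128 reads, and the deepest of 55293 clusters of other genes held 17721. These sets differ in size, so the maxima are not a like comparison. At least 100 reads were reached by 3 of 549 (0.546%, 0.186 to 1.59), against 1.48% of the clusters of other genes, a share that the interval holds. Reads were unevenly spread, since the 10 genes with the most exonic reads held 1895 of 3973 (47.7%), and the deepest cluster of each gene held 51.5% of the exonic reads of these genes, against 54.2% for other genes. Without each gene's deepest cluster the median of 56 fell to 18 reads.

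**Figure D1:**
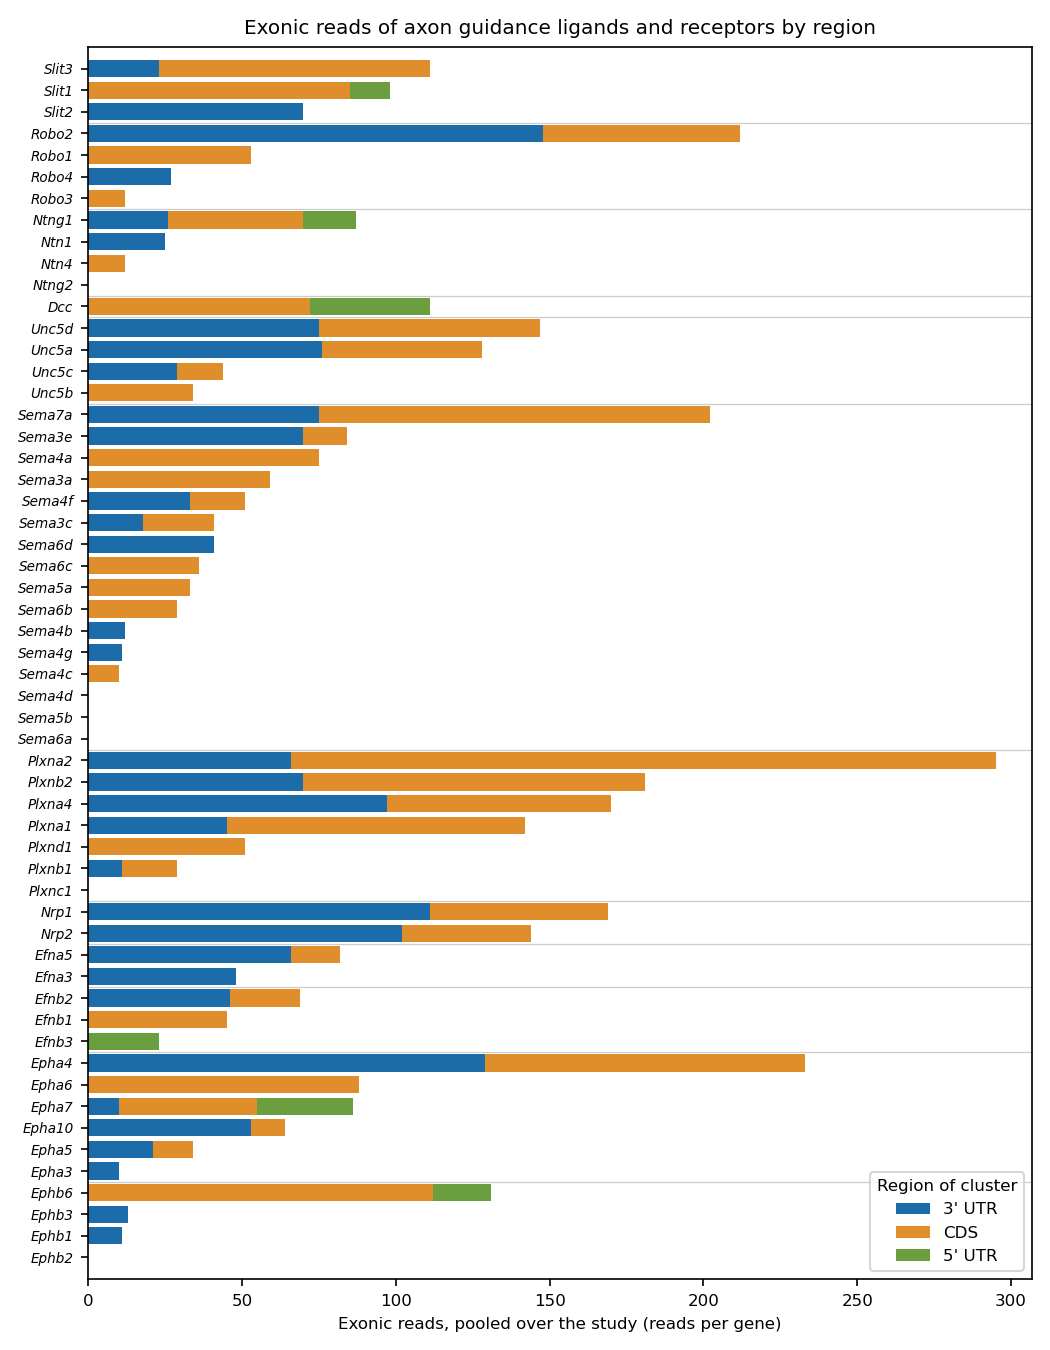
Exonic reads of each of the 56 genes (x axis, reads pooled over the study), grouped by family with lines between families and coloured by the region of the cluster. The longest bar is Plxna2 with 295 reads, mostly in CDS, and 6 genes have no bar because they have no exonic cluster.

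Receptors carried more exonic reads than ligands. The 28 receptors held 2619 exonic reads (median 75 per gene, 26 of 28 with an exonic cluster), and the 28 ligands 1354 (median 41, 24 of 28). Per kilobase of exon the medians over all genes of each role were 8.56 reads per kb for receptors and 5.90 reads per kb for ligands. Of the 10 genes with the most exonic reads, Sema7a was the only ligand. The ranges of single genes overlapped, 0 to 295 reads for receptors and 0 to 202 for ligands, and with pooled reads no test of the difference was possible.

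Among the Slits, the secreted repellents, exonic reads were 111 for Slit3 (95% Poisson interval 91.3 to 134), 98 for Slit1 (79.6 to 119) and 70 for Slit2 (54.6 to 88.4). The interval of Slit1 overlaps both others, and those of Slit3 and Slit2 do not overlap. Per kilobase of exon the levels were 18.3 reads per kb for Slit3, 16.55 for Slit1 and 2.75 for Slit2. These levels divide by 6067, 5921 and 25433 annotated exon bases. The annotated coding bases are close to each other, at 4569, 4610 and 4697, so the low level of Slit2 reflects its longer annotated exons as well as its reads. Slit3 had 3 CDS clusters with 88 reads and 1 3' UTR cluster with 23. The deepest of these CDS clusters, with 51 reads, lies in intron 22 of the longest coding transcript and is also annotated as intron. Slit1 had 3 CDS clusters with 85 reads and 1 5' UTR cluster with 13. Slit2 differed in kind, since its only exonic cluster was a single 3' UTR site at chr5:48307573-48307688 (plus strand, mm10) with all 70 reads, which is also annotated as 5' UTR. The Slit2 cluster holds a 6-base match to miR-128 and another to miR-26.

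The Robos, the receptors of Slits, ranged more widely. Robo2 had 148 reads in its 3' UTR and 64 in CDS (Poisson interval of the sum 184 to 243) over 16983 annotated exon bases. Robo1 had 53 exonic reads (39.7 to 69.3) over 16511. Robo4, which is known from endothelial cells, had 27 reads in 1 3' UTR cluster, and Robo3, which is known from crossing commissural axons, had 12 in 1 CDS cluster. The 3' UTR of Robo2 had 4 clusters with 84, 35, 16 and 13 reads, and that of Robo1 had none, its 53 reads lying in 3 CDS clusters. The deepest Robo2 site, at chr16:73893698-73893890 (minus strand), lies 2034 bases after the stop codon and holds no 6-base match to any of 26 miRNA families known to be abundant in brain.

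The 16-read Robo2 cluster at chr16:73895241-73895374 lies 520.5 bases after the stop codon. Its sites are shown because it holds full 8-base sites for 3 miRNAs. One of them is miR-218, whose own hairpins lie inside Slit2 and Slit3. The miR-218 site lies 54 bases before the centre of the cluster. The miR-23 site lies 13 bases before the centre and the miR-101 site 6 bases after it. Each line is the transcript strand from GENCODE M21 (GRCm38), 5′ to 3′, with the 7 bases complementary to miRNA bases 2 to 8 in capitals, and in all 3 an A follows, which makes an 8-base site.
Robo2, miR-218 site at chr16:73895356-73895379: ttttatttggtgatAAGCACAaat
Robo2, miR-23 site at chr16:73895315-73895338: tgaagaaaagattgAATGTGAagg
Robo2, miR-101 site at chr16:73895296-73895319: gaagggagttttctGTACTGTaag
miR-218-5p: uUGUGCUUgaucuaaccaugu
miR-23a-3p: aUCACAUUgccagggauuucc
miR-101a-3p: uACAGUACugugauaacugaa
The mature miRNAs are from RefSeq (GRCm38.p6), with the seed, bases 2 to 8, in capitals. Among the 3' UTR clusters of other genes, 6.98% held the miR-218 6-mer AGCACA, 6.62% the miR-23 6-mer ATGTGA and 6.87% the miR-101 6-mer TACTGT.

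The genes of miR-218 lie inside Slits. Mir218-1 lies in intron 16 of Slit2 (chr5:48223942-48224051, plus strand) and Mir218-2 in intron 14 of Slit3 (chr11:35616816-35616925, plus strand). Neither hairpin was overlapped by a cluster. The nearest cluster on the same strand was 83522 bases away from Mir218-1, which is the 70-read Slit2 site, and 17303 bases away from Mir218-2, where it held 16 reads. Matches to the miR-218 6-mer AGCACA were found in 4 of 54 3' UTR clusters of axon guidance genes (7.41%, 2.92 to 17.5) and in 6.98% of the 9229 3' UTR clusters of other genes. The 4 lie in Sema3e (70 reads), Epha10 (53 reads), Efnb2 (46 reads) and Robo2 (16 reads), and only the Robo2 match extends to an 8-base site.

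The 4 netrins had a median of 18.5 exonic reads, and the 4 Unc5 receptors a median of 86 with a range of 34 to 147. Ntng1, a membrane-anchored netrin-G that binds the synaptic adhesion molecule NGL-1, had 87 exonic reads, Ntn1, the classical secreted netrin, had 25 in 1 3' UTR cluster, and Ntn4 had 12. Ntng2 had no exonic cluster, only 5 intron-only clusters. The repulsive netrin receptors Unc5d and Unc5a had 147 (124 to 173) and 128 (106.8 to 152) exonic reads. Unc5c had 44 reads and Unc5b 34. The deepest Unc5a site, in the 3' UTR at chr13:55005685-55006030 (plus strand), held 76 of its reads, runs just past the annotated end of the gene and carries matches to miR-23, miR-92 and miR-181. Dcc, the attractive netrin receptor, had 111 exonic reads (91.3 to 134), 72 in CDS and 39 in a 5' UTR cluster. Of the CDS reads, 58 were in a cluster that lies in intron 7 of the longest coding transcript and is also annotated as intron. Dcc had no 3' UTR cluster although 5359 bases of its 3' UTR are annotated.

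Semaphorins had a low median of 34.5 exonic reads over 16 genes, and 1 gene stood out. Sema7a, the semaphorin anchored in the membrane by a lipid and known to bind plexin C1 and integrins, had 202 exonic reads (175 to 232), or 61.3 reads per kb of exon, the highest level per length of the 56 genes. Next per length came the receptors Ephb6 (34.7 reads per kb), Unc5a (30.7), Epha4 (28.9) and Plxnb2 (23.5). Of the 10 genes with the most exonic reads, 5 were also among the 10 with the most reads per kb. Sema7a had a CDS site of 104 reads in exon 5 of 14, at chr9:57954816-57955005 (plus strand), and a pair of 3' UTR sites of 39 and 36 reads. The CDS site is also annotated as intron. The 39-read site is shown because it holds a full 8-base miR-27 site 2 bases from its centre.
Sema7a, miR-27 site at chr9:57962641-57962664: ctaacttaggctaaACTGTGAaaa
miR-27a-3p: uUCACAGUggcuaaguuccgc

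Sema3e, a secreted semaphorin that binds plexin D1 directly, had 84 exonic reads, of which 70 were in 1 3' UTR site at chr5:14255142-14255258 (plus strand), 2412 bases after the stop codon. Its only match to the 26 families was a 6-base match to miR-218. Sema4a followed with 75 reads in 4 CDS clusters, and Sema3a, the best known secreted repellent of cortical axons, with 59 reads in 2 CDS clusters. The other semaphorins with exonic clusters were Sema4f, Sema3c, Sema6d, Sema6c, Sema5a, Sema6b, Sema4b, Sema4g and Sema4c, between 51 and 10 reads. Sema4d, Sema5b and Sema6a had no exonic cluster, with 4, 1 and 1 intron-only clusters. In mice Sema4d and Sema6a are ligands of B-class and A-class plexins.

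Plexins, the semaphorin receptors, had the largest sum of exonic reads of the families, 868 over 7 genes. Over the genes named by a cluster, their pooled level was 11.8 reads per kb of exon. This was below the A-class ephrins (20.1, with 2 of 5 genes named) and the neuropilins (14.5). Their median of 142 reads per gene was below the 156.5 of the neuropilins. Both neuropilin values count the 111 reads of an Nrp1 site that lies beyond the annotated end of that gene. The bases of this site are not in the exon length, and both ranks above the plexins rest on it. Plxna2, a receptor of Sema6A, led all 56 genes with 295 reads (262 to 331) in 10 clusters, which placed it at percentile 95.4 of the other genes with an exonic cluster. Of these reads 229 were in 6 CDS clusters and 66 in 4 3' UTR clusters. Its deepest site, in exon 29 of 32 at chr1:194807474-194807600 (plus strand), held 128 reads and was the deepest of all axon guidance clusters. This site is also annotated as intron. Plxnb2, a receptor of class 4 semaphorins, had 181 reads (156 to 209), Plxna4, which pairs with neuropilin 1 in the response to Sema3A, had 170 (145 to 198), and Plxna1 had 142 (120 to 167). Among these 4 plexins the interval of Plxna2 lay above the others, which overlap. Plxnd1 had 51 reads and Plxnb1 29, and Plxnc1, the receptor of Sema7a, had none and only 7 intron-only clusters.

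The deepest 3' UTR sites of Plxnb2 and Plxna4 are shown because they are the deepest 3' UTR clusters with matches to at least 4 of the 26 families. The Plxnb2 site, at chr15:89155809-89156211 (minus strand) with 70 reads, lies 273 bases after the stop codon. It holds 3 matches to all 7 seed bases of miR-138, a miRNA known for limiting the size of dendritic spines. Of these, 2 are 8-base sites. In the order shown, the 3 matches lie 61.5 and 42.5 bases before the centre of the cluster and 67.5 bases after it.
Plxnb2, miR-138 site at chr15:89156066-89156089: ggcgcccgagtcagCACCAGCtcc
Plxnb2, miR-138 site at chr15:89156047-89156070: gctccttccaatggCACCAGCatc
Plxnb2, miR-138 site at chr15:89155937-89155960: ctccccttcccacgCACCAGCagc
miR-138-5p: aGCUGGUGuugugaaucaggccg
The Plxnb2 cluster is 403 bases wide, the broadest of the exonic clusters of these genes, and also holds matches to miR-124, miR-137, miR-34 and the pair miR-221 and miR-222. Only 2 of the 54 3' UTR clusters hold a miR-138 6-mer, ACCAGC, the other being in Efnb2 (46 reads), a share of 3.70%, against 5.17% in other genes.

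The Plxna4 site, at chr6:32149999-32150207 (minus strand) with 65 reads, lies 388 bases after the stop codon. It holds matches to miR-16 and its family (miR-15, miR-16 and miR-195), miR-27, miR-103 with miR-107, and miR-128.
Plxna4, miR-16 site at chr6:32150117-32150140: acagaacattcctaTGCTGCTact
Plxna4, miR-128 site at chr6:32150085-32150108: gctttgagaatctcCACTGTGgtc
Plxna4, miR-27 site at chr6:32150053-32150076: ggcttcaggaagcaACTGTGAgct
miR-16-5p: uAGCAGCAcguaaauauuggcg
miR-128-3p: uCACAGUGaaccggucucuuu
The first is an 8-base site, and this is the only 3' UTR cluster of the 56 genes with a miR-16 match, of which it holds 2. Its letters overlap the miR-103 match ATGCTGC, shifted by 1 base, so these 2 families share 1 place in the transcript. The miR-27 match overlaps a second miR-128 match of the cluster within the letters ACTGTGA, while the miR-128 site shown lies apart from it.

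Both neuropilins were well covered. Nrp1, which binds Sema3A and VEGF, had 169 exonic reads (144 to 196), and Nrp2, which binds Sema3F, had 144 (121 to 170), with overlapping intervals. Each owed most of them to 1 3' UTR site. The Nrp1 site, at chr8:128503753-128503963 (plus strand), held 111 reads and lies beyond the 3' end of the gene in GENCODE M21, at position 128503363, although the table assigns it to the 3' UTR. It carries a miR-92 match. The Nrp2 site, at chr1:62796465-62796651 (plus strand), held 77 reads and lies in intron 15 of the longest coding transcript, while the table assigns it to both the 3' UTR and an intron. It is shown for its miR-128 match, 8.5 bases from its centre, and it also carries a miR-23 match.
Nrp2, miR-128 site at chr1:62796549-62796572: gggagagactgattCACTGTGgaa

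Per kilobase of exon, the 2 named A-class ephrins together had 20.1 reads per kb, the highest pooled level of the families, and the B-class ephrins 10.2. These pooled levels leave out genes that no cluster named on their strand, among them Efna1, Efna2 and Efna4. The rank therefore holds for named genes only. Efna5, a lipid-anchored ephrin known from topographic maps, had 82 exonic reads (20.3 reads per kb), 66 of them in 3 3' UTR clusters, and Efna3 had 48 reads (19.7 reads per kb) in 2 3' UTR clusters. Efnb2, a transmembrane ephrin that also signals backward into its own cell, had 69 reads, of which 46 were in 1 3' UTR cluster. Efnb1 had 45 reads, all in CDS, and Efnb3 had 23, all in the 5' UTR.

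Among Eph receptors, Epha4, which binds ephrins of both classes and is known at synapses of the hippocampus, had the most reads. It had 233 exonic reads (204 to 265) in 8 clusters, 129 of them in 4 3' UTR clusters (52, 35, 28 and 14 reads) and 104 in 4 CDS clusters. The 52-read site, at chr1:77373455-77373602 (minus strand) and 206.5 bases after the stop codon, holds no 6-base match to the 26 families. Epha6 had 88 reads, all in CDS, Epha7 had 86 and Epha10 64. Epha5 had 34 and Epha3 10. Of the B class, Ephb6, an Eph receptor without kinase activity, had 131 reads (110 to 155), 112 in 5 CDS clusters and 19 in the 5' UTR. Ephb3 had 13 reads, Ephb1 11 and Ephb2, a receptor known at synapses, none, with 2 intron-only clusters. Epha10, also without kinase activity, had its 53-read site at chr4:124916205-124916495 (plus strand), which holds 2 matches to the miR-29 seed and 1 each to miR-125 and miR-218. The miR-29 match nearest the centre of that cluster is shown, and its 6-mer GGTGCT was in 4 of the 54 clusters (7.41%), against 8.66% in other genes.
Epha10, miR-29 site at chr4:124916343-124916366: gccacacacagtccTGGTGCTtgc
miR-29a-3p: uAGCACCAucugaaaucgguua

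Introns held more of the clusters of axon guidance genes than of other genes. Of the 549 clusters 402 were intron-only (73.2%, 69.4 to 76.8), against 58.4% (58.0 to 58.8) of 55293 clusters of other genes. The 3' UTR held 54 (9.84%, 7.62 to 12.6), against 16.7%, CDS held 87 (15.8%, 13.0 to 19.1), against 23.3%, and the 5' UTR held 6 (1.09%, 0.502 to 2.36), against 1.61%. The intervals of the first 3 shares do not reach those of other genes. Clusters of 1 gene are not independent of each other, and the intervals do not cover that. Per intron length the difference went the other way: pooled over genes, 3.54 intron-only clusters per 100 kb of intron in axon guidance genes and 4.47 in other genes. Exonic clusters likewise numbered 30.4 per 100 kb of exon against 38.5. In depth the intron-only clusters were alike, with a median of 18 reads in both sets, while 3' UTR clusters had a median of 23.5 reads against 21 and CDS clusters 18 against 21.

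**Figure D2:**
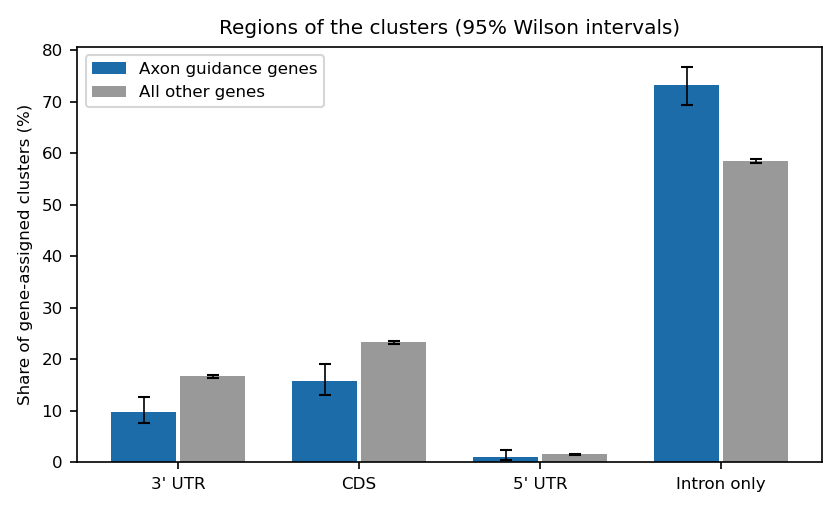
Share of clusters (y axis, %) in 3' UTR, CDS, 5' UTR and intron only, for the 549 clusters of axon guidance genes and the 55293 clusters of all other genes. Bars are shares and whiskers 95% Wilson intervals; the intron-only bar is 73.2% for axon guidance genes and 58.4% for other genes.

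The intron-only clusters belonged to few genes. Slit3 had 46, Dcc 41, Plxna4 35, Unc5d 28, Epha6 27 and Robo2 22, and these 6 genes held 199 of 402 (49.5%). The 14 genes with at least 10 intron-only clusters held 323 (80.3%); after the first 6 these were Epha5 and Robo1 (18 each), Unc5c (17), Plxna2 and Sema6d (16 each), Efna5 (15), Ephb1 (13) and Ntng1 (11). Across the 56 genes the number of intron-only clusters went with annotated intron length (Spearman correlation 0.711, across genes, which share the same libraries), and across 9521 other genes it was 0.633. Among genes with long introns, picked with their values in view, Sema3a had 0 intron-only clusters in 463 kb of intron and Sema5a had 2 in 433 kb, whereas Slit3 had 46 in 581 kb. Plxna4, with 8.14 per 100 kb, and Slit3, with 7.91, were dense among the long genes, and Epha6 with 2.85 and Robo1 with 2.496 were sparse. Nrp1 had none in 135 kb. In all, 15 of the 56 genes had none, and those outside the 14 leading genes had at most 7, among them Nrp2 with 4 and Efnb3 with 1.

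**Figure D3:**
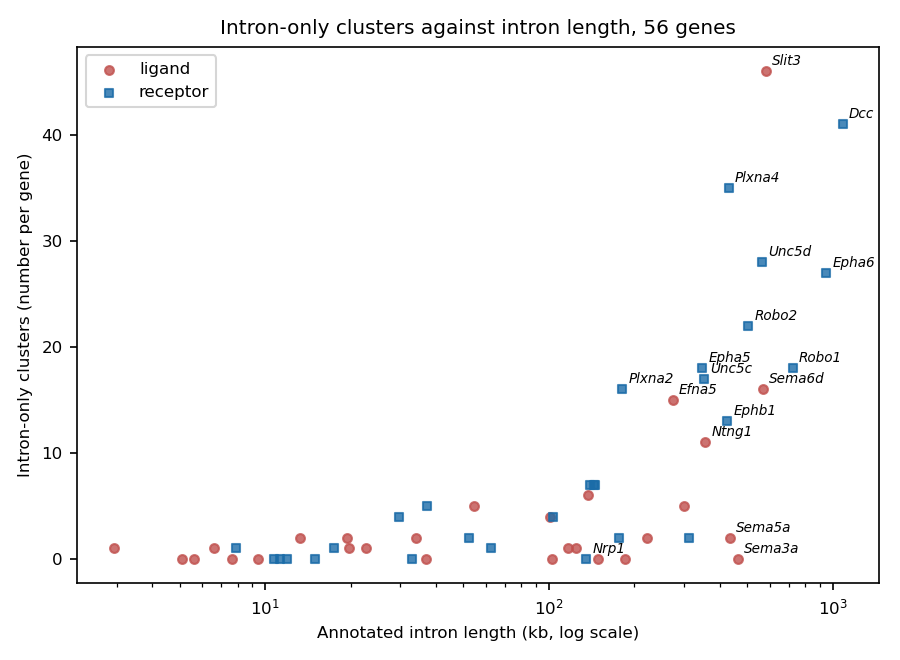
Number of intron-only clusters per gene (y axis) against annotated intron length (x axis, kb, log scale) for the 56 genes, with ligands as circles and receptors as squares. Counts rise with length, to 46 in Slit3 and 41 in Dcc, while Sema3a has 0 in 463 kb.

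Within these genes the clusters often lay in a single long intron. Of the 46 in Slit3, 41 were in intron 4 (273 kb). Of the 41 in Dcc, 33 were in intron 1 (395 kb), and of the 28 in Unc5d 22 were in intron 1 (328 kb). Intron 3 of Plxna4 (186 kb) held 24 of 35, intron 2 of Robo2 (306 kb) 21 of 22, intron 1 of Efna5 (230 kb) 14 of 15 and intron 1 of Unc5c all 17. In each of these genes this was the longest intron of the longest coding transcript. Epha6 and Epha5 were different, with clusters spread over 9 introns each. The deepest intron-only clusters were in Dcc (94 reads in intron 1 and 90 in intron 15), Epha5 (85 reads in intron 2), Robo2 (83 reads in intron 6) and Unc5c (77 reads in intron 1), so some of them were as deep as the best 3' UTR sites.

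**Figure D4:**
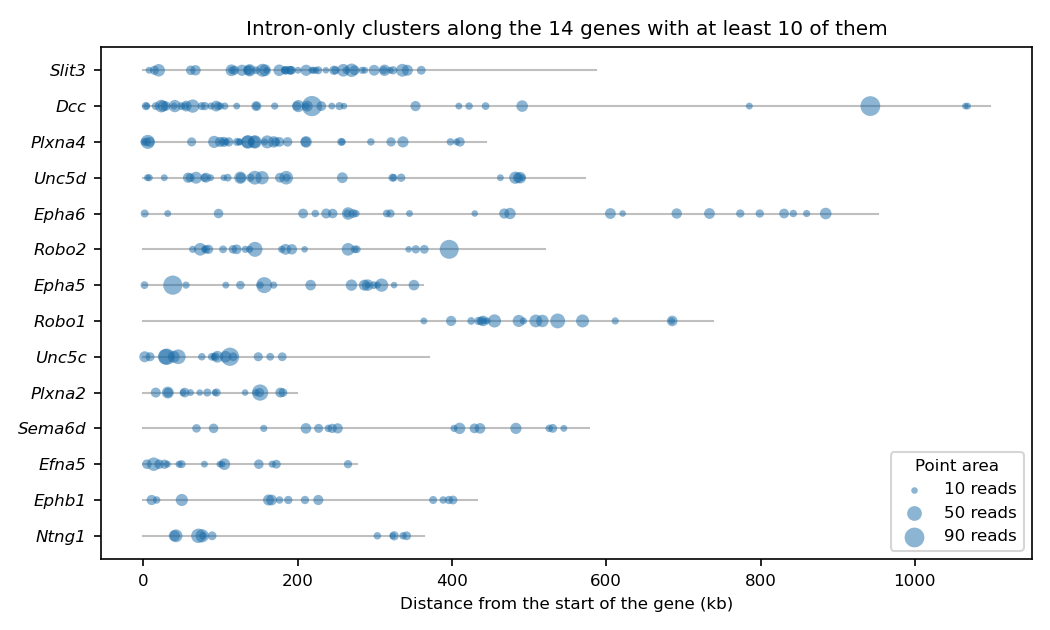
Position of each intron-only cluster (x axis, kb from the start of the gene) in the 14 genes with at least 10 of them, with grey lines for the extent of each gene and point area for reads. Slit3 has no cluster near the 3' end of the gene, and Unc5c has its 17 clusters in intron 1.

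By position in the gene, 197 of the 402 (49.0%, 44.1 to 53.9) lay in the first of 3 equal parts, 121 (30.1%) in the middle part and 84 (20.9%) in the last part. For other genes the shares were 38.7%, 33.7% and 27.7%. Of the clusters in the first part, Dcc held 33, Slit3 23, and Plxna4 and Unc5d 19 each. Without Slit3, Dcc, Plxna4 and Unc5d, which were picked after their values were seen, the remaining 252 clusters fell 40.9%, 31.3% and 27.8% into the 3 parts. Leaving out genes rich in first-part clusters lowers that share by itself, and the other genes were not trimmed in this way.

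circRNA identifiers were attached to 68 of the 549 clusters (12.4%, 9.89 to 15.4), against 15.9% for other genes. In CDS the share was 25 of 87 (28.7%), against 26.7% for other genes, and in introns 42 of 402 (10.4%, 7.82 to 13.8), against 15.1%. Epha5 had 14 such clusters, 13 of them intron-only, and Epha7 had 9, with 7 intron-only. Plxna2 had 6, Epha4 5 and Slit3 4. The 85-read intron cluster of Epha5 and the 56-read cluster in intron 5 of Epha7 both carry such an identifier. In Epha5, 13 of 18 intron-only clusters did, whereas none did among 41 in Dcc, 27 in Epha6, 22 in Robo2 or 17 in Unc5c.

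Seed matches were read from the deposited columns of 26 miRNA families known to be abundant in brain, each a count of the 6 letters complementary to miRNA bases 2 to 7 on the strand of the cluster. The most frequent in the 54 3' UTR clusters of axon guidance genes was miR-27 (CTGTGA), in 9 clusters of 7 genes (16.7%, 9.02 to 28.7), against 13.3% of the 9229 3' UTR clusters of other genes. Next came miR-128 (ACTGTG) in 7 (13.0%), against 13.6%, and miR-181 (GAATGT) in 6 (11.1%), against 7.35%. In clusters of Plxna4 (65 and 11 reads) and Sema7a (39 reads), the letters ACTGTGA count for both miR-27 and miR-128. miR-23 (ATGTGA), miR-26 (ACTTGA) and miR-125 (TCAGGG) were in 5 each (9.26%), against 6.62%, 6.40% and 6.95%. For these 6 families the interval of axon guidance genes holds the share of other genes. Of the 54 clusters, 15 (27.8%) matched none of the 26 families, against 20.5% in other genes, and matches to the 26 families numbered 10.8 per kb of cluster against 11.7.

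The family that joins miR-15, miR-195 and miR-16 had the 6-mer GCTGCT in 1 of 54 clusters (1.85%, 0.328 to 9.77), that of Plxna4, against 10.3% in other genes, just above that interval. It was the only one of the 26 families whose interval did not hold the share of other genes, and no test was made. With 7-base matches, read in the 49 clusters that lie in a single exon, it was in 1 (2.04%, 0.361 to 10.7), against 4.18% in other genes, a share that this interval holds. By 7 bases the interval of miR-137 did not hold the share of other genes, at 3 of 49 (6.12%, 2.10 to 16.5), against 1.60%. miR-9, whose 6-mer CCAAAG was in 6.58% of the clusters of other genes, was in 0 of 54, which allows a share of up to 5.56% by the limit of 3 counts and of 6.64% by Wilson's bound, and miR-99 with miR-100 was in 0 of 54, against 1.26%. miR-124, known as a neuronal miRNA, was in 3 clusters (5.56%, 1.91 to 15.1), 1 in Plxnb2 and 2 in Plxna2, against 10.3%.

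**Figure D5:**
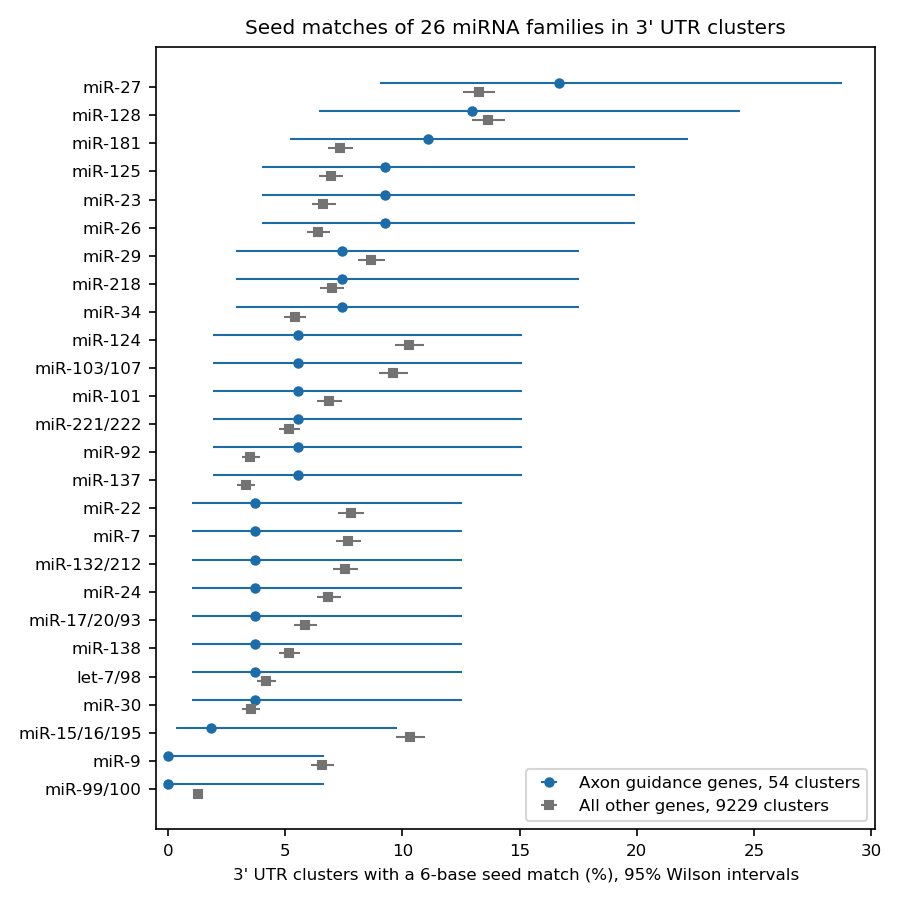
Share of 3' UTR clusters with a 6-base match (x axis, %) for each of 26 miRNA families, for the 54 clusters of axon guidance genes and the 9229 clusters of other genes, with 95% Wilson intervals. miR-27 is highest among axon guidance genes at 16.7%, and the interval of the family with miR-16 ends at 9.77%, below the 10.3% of other genes.

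Coding sequence had its own order. miR-128 matched 15 of the 87 CDS clusters (17.2%, 10.7 to 26.5), in 13 genes, against 11.4% of the CDS clusters of other genes. The deepest of them was the 128-read Plxna2 site, followed by Plxnb2 (63 reads), Slit3 (51 reads) and Plxna1 (45 reads). miR-22 and miR-27 were each in 11 (12.6%), against 10.1% and 10.8%, and miR-124 in 9 (10.3%), against 6.63%. miR-9, which no 3' UTR cluster matched, was in 8 CDS clusters (9.20%), against 7.27%. The 21-read Slit3 cluster in exon 28 of 36, at chr11:35675848-35675963 (plus strand), is shown because it holds a pair of miR-27 matches of all 7 seed bases, the second with an A after it.
Slit3, miR-27 site at chr11:35675884-35675907: gatcaacccagatgACTGTGAgga
Slit3, miR-27 site at chr11:35675899-35675922: ctgtgaggataacgACTGTGAaaa
Both lie within 11 bases of the centre of the cluster, and their letters also hold the miR-128 6-mer. Among the family shares in CDS and introns, 3 had intervals that did not hold the share of other genes, and no test was made. In CDS miR-30 was in 4 of 87 clusters (4.60%, 1.80 to 11.2), against 1.71% for other genes. In introns miR-29 (GGTGCT) was in 15 of 402 clusters (3.73%, 2.27 to 6.07), against 7.44%, and the family of miR-16 was in 12 (2.99%, 1.72 to 5.14), against 5.16%.

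Longer pairing could be read in the 49 3' UTR clusters that lie within 1 annotated exon. They hold 83 sites of the families with a mature sequence at hand, of which 36 are 6-base matches, 13 have a 6-base match followed by A, 20 match all 7 seed bases with no A after them and 14 are 8-base sites. The 34 sites with all 7 seed bases lie in 17 clusters of 16 genes. Of the 83 sites 61 are within 50 bases of the centre of their cluster. The 3' UTR clusters of these genes had a median width of 143 bases, so this window covers most of a typical cluster. No background share was computed, and the count does not show that sites gather at the centre. The 8-base sites are in Plxnb2, Plxna4, Sema7a, Sema6d, Robo2, Efna3, Sema4b, Sema4g, Epha3 and Plxna2. Of these, the 10-read Plxna2 cluster at chr1:194813239-194813342 holds 8-base sites for miR-26 and miR-30.

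Along the 3' UTR, 46 of the 54 clusters could be placed in the longest coding transcript. They lay at a median of 796.5 bases after the stop codon, 22 in the first, 16 in the middle and 8 in the last of 3 equal parts of the 3' UTR. Of the 87 CDS clusters, 60 are also annotated as intron. Neither the positions nor this overlap was counted for other genes, so they cannot be read as particular to axon guidance genes.

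Other genes of axon guidance signalling form a list of 70 that holds none of the 56. Of the 70, 63 were named in the table and 58 (82.9%) had an exonic cluster. The share was 50 of 72 (69.4%) for the annotated genes whose symbols fit the ligand and receptor families, and 35.7% for all protein-coding genes. The 70 were chosen with earlier results of these data known, whereas the 72 are all genes with fitting symbols, so the shares are not a like comparison. In 43 of the 70 a cluster was in the 3' UTR, and the median was 75 exonic reads where a gene had an exonic cluster. The highest were Arhgap35, a GTPase-activating protein (603 reads), Srgap3, a Rac-inactivating partner of Robo (601), Gsk3b, a kinase of many growth cone pathways (473), Nrcam, an adhesion molecule that associates with neuropilins (401), and Mical2, an actin-oxidising enzyme of the family that acts below plexins (253). All but the last were above the 295 reads of Plxna2. The 12 without an exonic cluster were Ablim3, Cxcr4, Dpysl5, Draxin, Farp2, Fes, Met, Nck1, Rgmb, Rgs3, Ryk and Vangl2.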

How the data were processed

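FLAG-Ago HITS-CLIP libraries of mouse forebrain were aligned with BWA to mm10, per the submitters' processing notes. Not given in the sources used here are the calling of clusters, the libraries pooled, the use of controls and any handling of PCR duplicates. The authors' deposited table gives, per the file headers, 1 whole-number read count per cluster (lowest 10), the genes overlapped and seed match numbers per miRNA. It has 0 columns of a single library or group, so edgeR, the planned comparison of Flag-Ago2 with control, could not be run, depth per library is unknown and no test was made.

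The axon guidance genes and all lists were chosen with earlier results of these data known. A cluster overlapping several regions counted as 3' UTR before CDS, CDS before 5' UTR and 5' UTR before intron. Exonic reads of a gene sum its clusters outside introns; 1 of the 549 clusters names more than 1 gene. Lengths, exons and transcript sequences came from GENCODE M21 (GRCm38), and reads per kb divide by all annotated exon bases. Coordinates are 1-based. Shares carry 95% Wilson intervals and reads of a gene 95% exact Poisson intervals. A share of 0 was bounded by 3 counts. The seed columns equalled the count of 6-mers in 8233 3' UTR clusters lying in a single exon, for each of 25 families with a mature RefSeq sequence; miR-124 rests on its column alone. Named with values were the 20 genes highest in exonic reads, the leading genes of each family, all Slits and Robos, the 10 deepest 3' UTR clusters, the genes with no exonic cluster and the 5 leading genes of the other pathway list; any other gene was picked with its values in view. Python 3.11.15 with pandas 2.3.3, numpy 2.4.6, scipy 1.17.1 and matplotlib 3.10.9 was used. Alternatives were a minimum of 20 reads, single-gene clusters only, no clusters with circRNA identifiers, counting every overlap, leaving out each gene's deepest cluster, reads per kb and 7-base matches.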

Additional observations from a re-analysis of the deposited data

Results flagged for a closer look

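Clusters on the strand opposite a gene lie outside the exonic and intronic values above. In all, 21 clusters lay opposite 16 axon guidance genes, with 10 to 33 reads each, and none of them names a gene on its own strand. Opposite Epha5 there were 3 clusters with 61 reads together, the deepest with 33 reads at chr5:84123429-84123549. Opposite Ephb1 there were 2 clusters with 27 reads. Sema3d, which no cluster names on its own strand, had 3 clusters opposite it with 57 reads, of 31, 13 and 13 each. These were singled out because more than 1 cluster lay there, with no control value in the table to set beside them. By gene, 15 of the 56 (26.8%, 16.96 to 39.6) had such a cluster, against 12.7% of all genes named in the table, with no account taken of gene length.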

How the results depend on the processing

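No paired analysis was possible because the table has no columns for single libraries. Of 30 alternative values for 9 results, 25 were counted as unchanged by the limits set for them, which were broad for counts of genes. With clusters of at least 20 reads, the deepest cluster of each gene held 63.3% of exonic reads instead of 51.5%. At that minimum 37 genes had an exonic cluster instead of 50, and 24 had a 3' UTR cluster instead of 33. Both counts were among the 25 values, and no share over all named genes was computed at that minimum. With every overlap counted, 84.9% of clusters lay in introns instead of 73.2%. Without clusters that carry a circRNA identifier, CDS held 12.9% instead of 15.8%. Without the deepest exonic cluster of each gene the median was 18 exonic reads instead of 56, and by reads per kb 5 of the 10 leading genes remained. For these the cause was not tested beyond what each alternative itself removes or adds. With 7-base matches, the share of 3' UTR clusters was outside the interval of the 6-base share for 10 of 25 families. A minimum of 20 reads did this for 4 of 26 and the deepest 3' UTR cluster per gene alone for 1 of 26. Pooled reads near the minimum of 10 limit what single sites can show.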
